A study of Mus musculus with 2 samples.

Results

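The receptors described here are the targets of the hormones and transmitters that constrict resistance arteries. They are Avpr1a (vasopressin), Agtr1a (angiotensin II), Ednra and Ednrb (endothelin), Adra1a, Adra1b and Adra1d (noradrenaline), P2rx1 (ATP), P2ry6 (UDP) and Tbxa2r (thromboxane A2). They were taken by gene symbol, and all 10 were found among the 55573 genes listed in the files. The data are 2 RNA-seq libraries of mesenteric artery, the vessels that feed the intestine, from wild type C57BL/6 mice aged 10 weeks. One library came from control arteries held in 5 mM K+. The second came from arteries depolarized in 60 mM K+. The labels give 60 min for both, and each library pooled arteries of 2 mice. A protocol field of the labels names 60 mM K+ for both samples, whereas the titles and treatment labels set the samples apart, and the groups follow the latter. No transgene was part of either group. By the study's methods the solutions held tetrodotoxin, a blocker of nerve activity, in both groups. The study asked how depolarization of vascular smooth muscle, through Ca2+ entry, alters gene transcription, which it calls excitation-transcription coupling. Its methods describe control tissue tied off and taken before the rest of the bed was perfused with high K+, so segment and time in solution may differ between the groups together with K+, and these cannot be told apart from it here.

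All of these receptors but P2rx1 are coupled to G proteins. In smooth muscle they act mainly through Gq, which drives phospholipase C, IP3 and Ca2+ release, and through G12/13, which drives RhoA and keeps myosin phosphorylated. P2rx1 is a cation channel opened by ATP that sympathetic nerves release. Some of the genes are not limited to smooth muscle. Ednrb is also the endothelin receptor of endothelium, where it promotes relaxation. In a whole artery, fewer cells of a type and less RNA per cell cannot be told apart.

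With 1 library per condition, replicates cannot check any difference, and no test was made. A difference is a log2(fold-change), 60 mM K+ over 5 mM K+, with the libraries scaled by TMM, the trimmed-mean factors of edgeR. Its 95% interval is exact (Clopper-Pearson) and covers counting error only. A gene is called past 2-fold where the log2(fold-change) is beyond 1 in either direction, and beyond counting error where the interval leaves out 0. Levels are the deposited FPKM, fragments scaled by gene length and total counts. The libraries held 10480918 reads (5 mM K+) and 11289598 reads (60 mM K+) on genes, and 14829 genes with at least 10 reads in both together were compared. The smooth muscle markers Acta2 and Myh11 stood at 12480 and 2807 FPKM in 5 mM K+ and at 12366 and 2510 FPKM in 60 mM K+. The mesothelial markers Msln, Upk3b and Lrrn4 had no read in either library.

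The study followed a pathway from Ca2+ entry to CREB, a factor known to bind the cAMP response element (CRE), the letters TGACG followed by TCA, and more weakly TGACG alone. RefSeq promoters (GRCm38.p6) were therefore searched on both strands over the 250 bases before each transcription start. Promoter sequence was at hand for 6 of the 10 receptors, Avpr1a, Ednra, Ednrb, Adra1b, P2rx1 and Tbxa2r, and was not used for Agtr1a, Adra1a, Adra1d and P2ry6. TGACG was found in 3 of the 6, and 19.8% of all 27025 genes with promoters held it. The full CRE, which contains TGACG, was found in 0 of the 6 and in 1.77% of all genes. The CArG box, the motif of serum response factor, was found in 0 of the 6 and in 1.62% of all genes. The 3 promoters with TGACG are shown because they belong to receptors that went different ways below, and capitals mark the motif. It starts 165 bases before the Avpr1a start, 203 bases before the Ednrb start and 26 bases before the second Tbxa2r start. Each is read 5' to 3' in the direction of its gene.
Avpr1a, chr10:122448249-122448498, plus strand: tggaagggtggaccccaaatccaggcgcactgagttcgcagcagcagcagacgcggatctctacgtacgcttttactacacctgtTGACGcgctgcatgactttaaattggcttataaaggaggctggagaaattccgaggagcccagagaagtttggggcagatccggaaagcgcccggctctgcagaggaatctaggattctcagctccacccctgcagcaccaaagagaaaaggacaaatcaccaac
Ednrb, chr14:103843702-103843951, minus strand: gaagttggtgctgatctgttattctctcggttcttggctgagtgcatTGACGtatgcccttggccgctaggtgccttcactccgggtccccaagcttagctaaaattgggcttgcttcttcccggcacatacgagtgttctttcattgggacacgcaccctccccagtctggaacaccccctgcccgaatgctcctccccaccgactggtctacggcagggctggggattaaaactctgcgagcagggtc
Tbxa2r, second start, chr10:81328453-81328702, plus strand: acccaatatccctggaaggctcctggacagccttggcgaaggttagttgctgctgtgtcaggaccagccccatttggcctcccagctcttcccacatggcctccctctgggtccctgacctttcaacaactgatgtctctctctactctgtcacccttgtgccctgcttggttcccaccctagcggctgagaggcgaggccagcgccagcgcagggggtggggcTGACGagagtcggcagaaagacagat
A match is a description of letters and not a bound site.

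The receptors spanned more than 3 orders of magnitude in FPKM in each library. P2rx1 stood first, at 576 FPKM in 5 mM K+ and 554 FPKM in 60 mM K+. Avpr1a came second in both, at 46.0 and 87.1 FPKM, followed by Adra1d, at 24.4 and 36.9 FPKM. In 5 mM K+ the next receptors in the order were Tbxa2r (22.1 FPKM), P2ry6 (22.0 FPKM), Ednra (19.5 FPKM) and Ednrb (19.2 FPKM). From Adra1d down to Ednrb, no neighbours in that order differed beyond their 95% Poisson bounds. In 60 mM K+ the order after Adra1d was P2ry6 (20.3 FPKM), Ednrb (18.7 FPKM), Tbxa2r (13.3 FPKM) and Ednra (11.8 FPKM). There Adra1d lay clear of P2ry6, and Ednrb lay clear of Tbxa2r, whereas P2ry6 with Ednrb, and Tbxa2r with Ednra, did not differ beyond their bounds. The lowest 3 were the same in both libraries. Adra1a had 7.28 and 5.61 FPKM, Agtr1a 3.59 and 1.31 FPKM, and Adra1b 0.375 and 0.0633 FPKM. By the deposited FPKM, P2rx1 thus exceeded Avpr1a by 12.5 times in 5 mM K+ and by 6.36 times in 60 mM K+. These ratios depend on the gene lengths used.

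**Figure D1:**
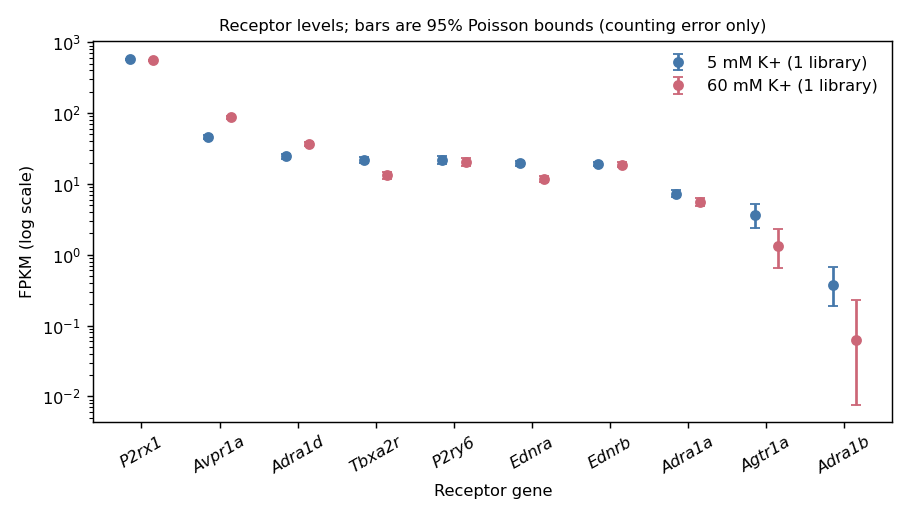
Level of each receptor (FPKM, log axis) in the 5 mM K+ library (blue) and the 60 mM K+ library (red), 1 library each, with 95% Poisson bounds for counting error. P2rx1 lies far above the rest at 576 and 554 FPKM, 4 receptors lie close together near 20 FPKM in 5 mM K+, and Adra1b is lowest in both.

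Between the libraries, 1 receptor was past 2-fold higher in 60 mM K+, against 5.54% of all genes compared, and 2 were past 2-fold lower, against 5.86%. The receptor that was higher was Avpr1a, and the 2 that were lower were Agtr1a and Adra1b, which had 39 and 13 reads in the libraries together. Beyond counting error, 4 receptors were higher (Avpr1a, Adra1d, Ednrb and P2rx1), against 25.0% of all genes, and 4 were lower (Ednra, Tbxa2r, Agtr1a and Adra1b), against 20.3%. Scaled by total counts instead, 2 were higher (Avpr1a and Adra1d), against 13.6% of all genes, and 6 lower, against 38.4%, since Adra1a and P2rx1 then joined the lower ones and the interval of Ednrb held 0. A gene with more reads is more easily called beyond counting error. Of the 8 receptors with at least 100 reads, 4 were higher and 2 lower with TMM scaling, against 31.3% and 22.8% of such genes. The median log2(fold-change) of the 10 receptors was -0.04, beside -0.0047 over all genes. Total-count scaling moved every value by -0.21, and the medians then became -0.24 and -0.21. An assumed coefficient of variation of 0.2 between libraries was also added to the counting error. These intervals are a normal approximation and not exact. Avpr1a was then the 1 receptor still higher and Adra1b the 1 still lower. The upper end for Adra1b was -0.04, on 13 reads, so this call is weak. The share of all genes was not counted in this way.

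**Figure D2:**
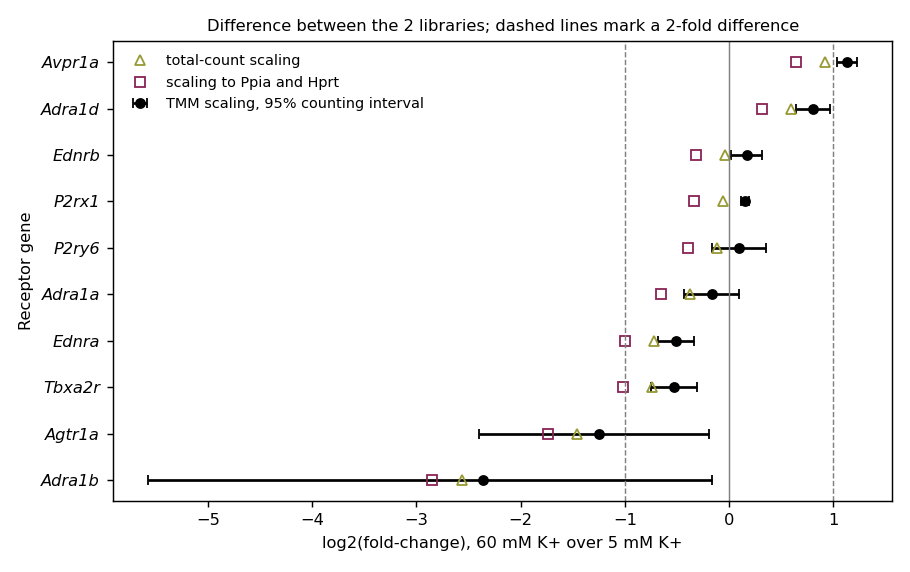
log2(fold-change) of each receptor, 60 mM K+ over 5 mM K+, with TMM scaling and its 95% counting interval (black), total-count scaling (triangles) and scaling to Ppia and Hprt (squares). Avpr1a is highest and Adra1d second, and the intervals of Agtr1a and Adra1b are wide. A scaling moves all receptors by the same amount, so it cannot alter their order.

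Avpr1a, the V1a receptor through which vasopressin constricts vessels, had 1287 reads in 5 mM K+ and 2626 in 60 mM K+. The 60 mM K+ library was thus the higher, by 2.19-fold, a log2(fold-change) of 1.13 (95% interval 1.03 to 1.23). It ranked 247 from the top among the 10738 genes with at least 100 reads, of which 3.06% were past 2-fold higher. The value was 0.92 with total-count scaling and 0.64 with scaling to Ppia and Hprt, the 2 reference genes of the study's PCR. The study chose them as similar in the 2 K+ conditions. In these libraries they were higher in 60 mM K+ by 0.51 and 0.47 with TMM scaling, and by 0.30 and 0.26 with total counts. Whether Avpr1a lay past 2-fold therefore rested on the scaling, while its direction was the same under each of 5 alternative scalings. Ratios between receptors need no scaling. Against P2rx1, Avpr1a was higher by 0.98 on the log2 scale (0.88 to 1.08) in 60 mM K+, and against Adra1d by 0.33 (0.14 to 0.52). Its share of the reads of the 10 receptors was 8.541% (exact 95% interval 8.100 to 8.999) in 5 mM K+ and 15.8% (15.2 to 16.3) in 60 mM K+. Avpr1a is among the genes that the study listed as altered on these same libraries, so that listing is not independent evidence. On mm9 the gene lies on chromosome 10 from 121885555 to 121890509, plus strand. The other vasopressin receptors, Avpr1b of the pituitary and Avpr2 of the kidney, had 0 reads in both libraries, as did the gene of the hormone, Avp. A count of 0 allows up to 3 reads, or 0.266 CPM (reads in a library of 1000000) in 5 mM K+ and 0.286 CPM in 60 mM K+.

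Mice have a pair of genes for the type 1 angiotensin receptor. Agtr1a (chromosome 13, 30428310 to 30474736, plus strand, mm9) had 28 reads in 5 mM K+ and 11 in 60 mM K+. Agtr1b (chromosome 3, 20213395 to 20266099, minus strand), which is not among the 10, had 208 and 105. Both were lower in 60 mM K+. The log2(fold-change) was -1.25 (-2.40 to -0.20) for Agtr1a and -0.88 (-1.24 to -0.54) for Agtr1b, and the difference between them, -0.36, had an interval from -1.42 to 0.70. Agtr1b thus held most reads of the pair, with Agtr1a at 11.9% (8.03 to 16.7) in 5 mM K+ and 9.48% (4.83 to 16.3) in 60 mM K+. The pair needs care, because the coding sequences, 1080 bases each, are 90.8% identical. Of all 50-base windows of the Agtr1a coding sequence, 3.20% occur unaltered in Agtr1b, and reads within them cannot be assigned to either. The longest shared run, 66 bases at coding positions 75 to 140 of both (GENCODE vM1 transcripts), is shown as the longest of the stretches that can share reads.
Agtr1a and Agtr1b shared run: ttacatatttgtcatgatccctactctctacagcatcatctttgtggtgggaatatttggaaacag
Agtr2, the type 2 receptor, had 0 reads in both libraries.

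Ednra, the endothelin receptor of smooth muscle, had 691 reads in 5 mM K+ and 452 in 60 mM K+. It was lower in 60 mM K+, with a log2(fold-change) of -0.51 (-0.69 to -0.34). Ednrb had 723 and 758 reads and a value of 0.17 (0.02 to 0.32), which turned to -0.04 with total-count scaling. The 2 genes therefore parted. Ednra against Ednrb differed by -0.68 (-0.91 to -0.46) whatever the scaling, and the Ednra share of endothelin receptor reads was 48.9% (46.2 to 51.5) in 5 mM K+ and 37.4% (34.6 to 40.2) in 60 mM K+. Endothelial markers were also higher beyond counting error in 60 mM K+ for 7 of 8 genes, against 25.0% of all genes. The summed level of these markers was 1480 FPKM in 5 mM K+ and 1745 in 60 mM K+. With total-count scaling, however, 4 were higher and 1 lower, against 13.6% and 38.4% of all genes. With Ppia and Hprt scaling, 2 were higher and 5 lower, against 5.54% and 62.6%. Pecam1, an adhesion protein of endothelial junctions, had a value of 0.50 and Cdh5, the endothelial cadherin, 0.83, and Ednrb differed from them by -0.33 and -0.66. The values of Egfl7 (0.19), Tek (0.25), Vwf (0.28) and Erg (0.33) lay nearer to that of Ednrb. Cldn5 had 0.67, and Kdr was lower, at -1.10. Fibroblast markers were lower for 5 of 6 genes, against 20.3% of all genes, with sums of 2364 and 1880 FPKM. The calls use TMM scaling, whereas FPKM is scaled by total counts. With TMM scaling, the summed reads of the fibroblast markers had a log2(fold-change) of -0.12. Pi16 was the 1 fibroblast marker that was higher, at 0.21 (0.13 to 0.29). The part of either cell type in the endothelin receptor values was not tested. On mm9, Ednra lies on chromosome 8 from 80186930 to 80248363 and Ednrb on chromosome 14 from 104213842 to 104243390, both on the minus strand. Ednra shares 91 exon bases with the antisense lincRNA 4933431K23Rik, and since the library kit does not mark strand, reads of the 2 cannot be told apart there.

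The alpha-1 receptors respond to noradrenaline from sympathetic nerves, and Adra1d led them in both libraries. It had 486 reads in 5 mM K+ and 791 in 60 mM K+, and was higher in 60 mM K+ by 1.75-fold, a log2(fold-change) of 0.80 (0.64 to 0.97). Adra1a had 271 and 225 reads and a value of -0.17, whose interval (-0.43 to 0.09) spans 0 but lies below 0 with total-count scaling (-0.38). Adra1b had 11 and 2 reads and a value of -2.36 (-5.57 to -0.16), so its direction rests on 13 reads. The subtypes thus did not go together. Adra1a against Adra1d differed by -0.97 (-1.27 to -0.67), and the share of Adra1d among alpha-1 reads was 63.3% (59.8 to 66.7) in 5 mM K+ and 77.7% (75.0 to 80.2) in 60 mM K+. Adra1a held 35.3% and 22.1% of those reads, and Adra1b 1.43% and 0.196%. Adra1d ranked 512 from the top among the 10738 genes with at least 100 reads. The 3 coding sequences are 66.6% to 68.3% identical and share no 50-base window, unlike the angiotensin pair. On mm9, Adra1d lies on chromosome 2 from 131371586 to 131388021, minus strand, and shares 147 exon bases with the antisense transcript Gm14285, with the same limit. Adra1a lies on chromosome 14 from 67254088 to 67390005, plus strand, and Adra1b on chromosome 11 from 43588108 to 43714712, minus strand.

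**Figure D3:**
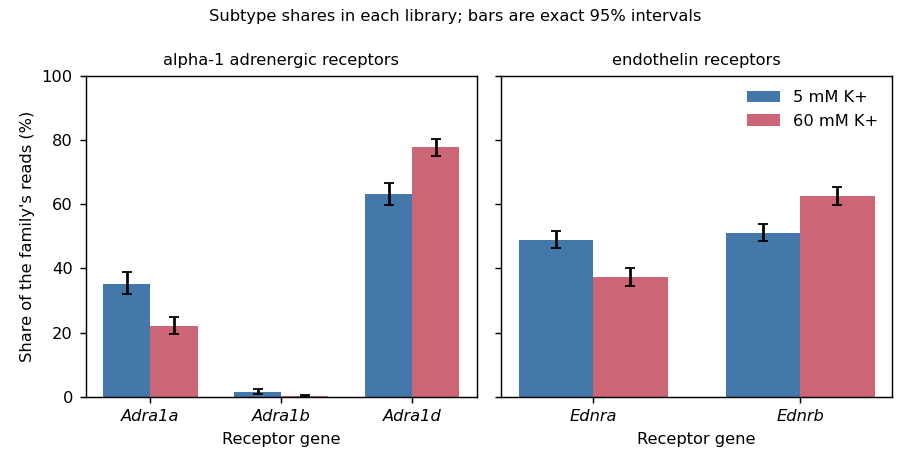
Share of each subtype (percent of the family's reads, bars from 0) in the 5 mM K+ library (blue) and the 60 mM K+ library (red), with exact 95% intervals. Adra1d goes from 63.3% to 77.7% of alpha-1 reads and Ednra from 48.9% to 37.4% of endothelin receptor reads.

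The nucleotide receptors had values near 0 in either scaling. P2rx1, the ATP-gated channel, had 10894 reads in 5 mM K+ and 11280 in 60 mM K+, a log2(fold-change) of 0.15 (0.11 to 0.19) that became -0.06, and lower beyond counting error, with total-count scaling. P2ry6, the UDP receptor, had 250 and 249 reads and a value of 0.10 (-0.16 to 0.35), or -0.11 with total-count scaling. The difference between them was 0.06 (-0.20 to 0.31). P2rx1 alone took 72.3% of the reads of the 10 receptors in 5 mM K+ and 67.7% in 60 mM K+. By FPKM, which allows for length, it took 77.8% and 74.0%. On mm9, P2rx1 lies on chromosome 11 from 72812605 to 72828702, plus strand, and P2ry6 on chromosome 7 from 108086152 to 108112905, minus strand.

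Tbxa2r, the receptor for thromboxane A2 from platelets and the vessel wall, had 427 reads in 5 mM K+ and 276 in 60 mM K+. It was lower in 60 mM K+, with a log2(fold-change) of -0.53 (-0.75 to -0.31). This value differed from that of Ednra by 0.02, with an interval from -0.26 to 0.29. Each of 5 alternative scalings moved every value down, so neither could turn above 0. With Ppia and Hprt scaling the values were -1.018 for Tbxa2r and -1.001 for Ednra. Among the 10738 genes with at least 100 reads, 22.8% were lower beyond counting error and 0.810% were past 2-fold lower. On mm9, Tbxa2r lies on chromosome 10 from 80791477 to 80797916, plus strand.

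**Figure D4:**
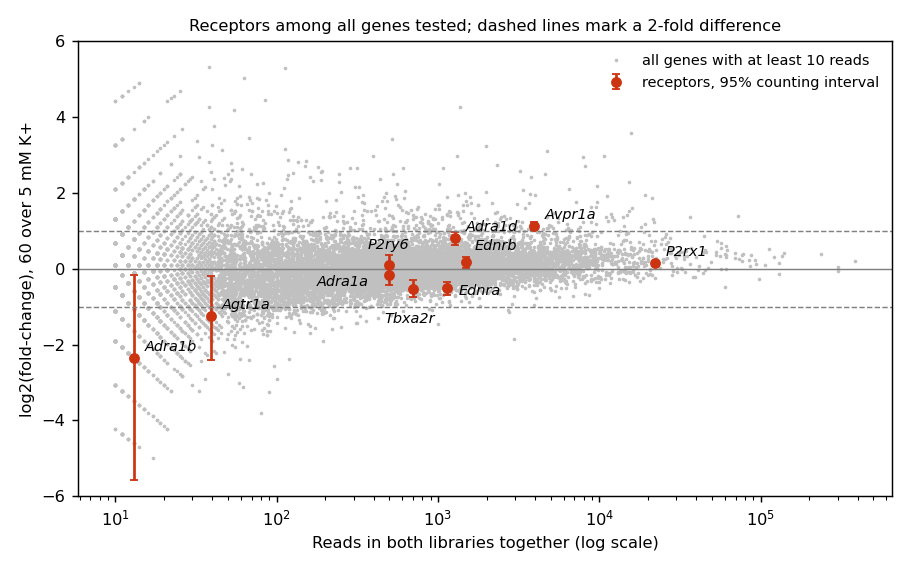
log2(fold-change) against reads in both libraries together (log axis) for 14829 genes (grey, 1 gene beyond 6 not drawn) and the 10 receptors (red, with 95% counting intervals). Avpr1a sits above the upper 2-fold line at 3913 reads, and Agtr1a and Adra1b sit below the lower line where the reads are few and the grey points spread widest.

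Of 20 genes for the ligands and the enzymes that make or clear them, 13 had at least 10 reads. Among these, 6 (46.2%) were higher and 2 (15.4%) lower beyond counting error, against 25.0% and 20.3% of all genes. With total-count scaling, 5 were higher and 3 lower, against 13.6% and 38.4% of all genes. Past 2-fold with TMM scaling, 3 were higher (Edn1, Ptgs2 and Ren1) and 2 lower (Mme and Dbh), against 5.54% and 5.86% of all genes. The median was -0.04. Edn1, the gene of endothelin-1, had 594 reads in 5 mM K+ and 1223 in 60 mM K+, a log2(fold-change) of 1.14 (1.00 to 1.29). It is also among the genes the study listed on these libraries. Edn1 and its receptor Ednra therefore went opposite ways, with a difference of -1.65 (-1.88 to -1.43) for Ednra against Edn1. Ptgs2, the inducible cyclooxygenase that makes the precursor of thromboxane and prostacyclin, had 1465 and 3788 reads and a value of 1.47 (1.38 to 1.56). Ren1, the gene of renin, had 12 and 28 reads, Mme, the gene of the peptidase neprilysin, 14 and 4, and Dbh, the enzyme that makes noradrenaline, 7 and 3. Among the members with the most reads, Ace, which makes angiotensin II, had 3434 and 4263 reads (0.41), Ece1, which makes endothelin-1 from its precursor, 2573 and 2818 (0.23, interval 0.16 to 0.31), and Entpd1, which breaks down ATP and ADP, had 3963 and 3583 (-0.04). Avp, Edn2 and Th had no read in either library.

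Of 13 tested genes for Gq and G12/13 proteins, phospholipase C, IP3 receptors and protein kinase C, 5 (38.5%) were higher and 2 (15.4%) lower beyond counting error, against 25.0% and 20.3% of all genes, 0 were past 2-fold, and the median was 0.05. With total-count scaling the balance turned to 1 higher and 6 lower, against 13.6% and 38.4% of all genes, with a median of -0.16. With TMM scaling, 5.54% of all genes were past 2-fold higher and 5.86% lower. Plcb4 and Plcb3, which are phospholipase C isoforms, had values of 0.03 and -0.22. Itpr1, an IP3 receptor that releases stored Ca2+, had 3506 reads in 5 mM K+ and 2291 in 60 mM K+ and a value of -0.51 (-0.59 to -0.44). Of 11 genes of the RhoA pathway and myosin phosphorylation, 6 (54.5%) were higher and 4 (36.4%) lower, against the same 25.0% and 20.3%, 0 were past 2-fold, and the median was also 0.05. Here too the balance turned, to 2 higher and 7 lower with total-count scaling, against 13.6% and 38.4% of all genes. The median was then -0.16. All 11 had at least 100 reads, and with TMM scaling 31.3% of such genes were higher and 22.8% lower beyond counting error. Past 2-fold, 3.06% of such genes were higher and 0.810% lower. With Ppia and Hprt scaling, 0 were higher and 11 lower, against 5.54% and 62.6% of all genes. The most abundant of these 11 genes by reads were Myh11 (0.05), Myl9 (0.33) and Mylk (0.06), the myosin heavy chain, its light chain and the kinase of that chain. Of 13 genes that desensitize receptors, 6 (46.2%) were higher and 5 (38.5%) lower, against 25.0% and 20.3% of all genes, with a median of 0.08. With total-count scaling, 4 were higher and 6 lower, against 13.6% and 38.4% of all genes, with a median of -0.13. Past 2-fold with TMM scaling, 1 was higher and 0 lower, against 5.54% and 5.86% of all genes. Here the RGS proteins, which turn off Gq and Gi, diverged. Rgs4 had 5173 and 3032 reads (-0.67, interval -0.73 to -0.60), Rgs2 6356 and 5687 (-0.06) and Rgs5 2837 and 3240 (0.29), while Rgs16 had 30 and 80 and was the 1 member past 2-fold, at 1.52 (0.89 to 2.17).

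Of 30 further receptors that can constrict vessels, 23 had at least 10 reads, of which 4 (17.4%) were higher and 8 (34.8%) lower beyond counting error, against 25.0% and 20.3% of all genes, with a median of -0.26. With total-count scaling, 3 were higher and 12 lower, against 13.6% and 38.4% of all genes. Past 2-fold with TMM scaling, 2 were higher and 1 lower, against 5.54% and 5.86% of all genes. Npy1r, the Y1 receptor for the sympathetic cotransmitter neuropeptide Y, had 5459 reads in 5 mM K+ and 3163 in 60 mM K+, a log2(fold-change) of -0.69 (-0.75 to -0.62). S1pr3, a sphingosine-1-phosphate receptor, had 4126 and 5624 reads (0.55), and F2r, the main thrombin receptor, 1139 and 1227 (0.21). Past 2-fold were P2ry2, a receptor for ATP and UTP, with 129 and 252 reads (1.07, interval 0.76 to 1.38), Bdkrb1, the inducible bradykinin receptor, with 11 and 58 (2.50, interval 1.56 to 3.58), and, in the lower direction, the muscarinic receptor Chrm3 with 9 and 3.

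Of 24 receptors and subunits that relax vessels, 18 had at least 10 reads, of which 7 (38.9%) were higher and 3 (16.7%) lower, against 25.0% and 20.3% of all genes, with a median of 0.11. With total-count scaling, against 13.6% and 38.4% of all genes, 7 were higher and 5 lower. Past 2-fold with TMM scaling, 3 were higher and 1 lower, against 5.54% and 5.86% of all genes. Those past 2-fold higher were Ptgir, the prostacyclin receptor, with 405 reads in 5 mM K+ and 777 in 60 mM K+ (1.04, interval 0.87 to 1.22), Vipr1, a receptor of vasoactive intestinal peptide, with 327 and 635 (1.06), and Bdkrb2, the constitutive bradykinin receptor, with 28 and 55 (1.08). Drd1, the D1 dopamine receptor, was past 2-fold lower with 104 and 45 reads (-1.11). The members with the most reads were Gucy1a1 and Gucy1b1, which together form the nitric oxide receptor guanylyl cyclase, and Ramp2, a partner of the adrenomedullin receptor. Their values were -0.56, -0.12 and 0.53. With total-count scaling, this median became -0.10 and that of the other constrictor receptors -0.47. Edn1, P2ry2, Ptgir, Vipr1 and Bdkrb2, like Avpr1a, were then short of 2-fold. No difference between the lists was tested.

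**Figure D5:**
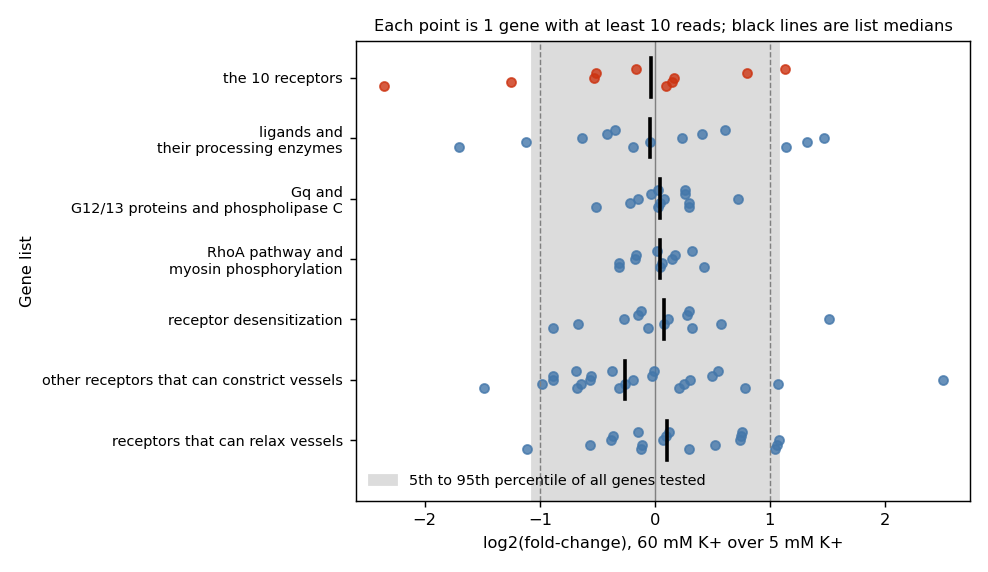
log2(fold-change), 60 mM K+ over 5 mM K+, of each gene with at least 10 reads in the 10 receptors (red) and 6 related lists (blue), with list medians (black) and the range from the 5th to the 95th percentile of all genes (grey, -1.07 to 1.08). List medians lie between -0.26 and 0.11, and Avpr1a, Agtr1a and Adra1b are the receptors outside the grey range.

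Markers of smooth muscle and of other cell types were counted in the same way. Among all genes, 25.0% were higher and 20.3% lower beyond counting error. Smooth muscle markers were higher in 6 of 8 genes and lower in 2, with sums of 19744 FPKM in 5 mM K+ and 19339 in 60 mM K+. The FPKM sums here and below are scaled by total counts, and the calls by TMM. With TMM scaling, the summed reads of the smooth muscle markers had a log2(fold-change) of 0.13. With total-count scaling, 2 were higher and 5 lower, against 13.6% and 38.4% of all genes. The direction of the median, 0.13, became -0.08 with that scaling. Adipocyte markers summed to 88.2 and 38.6 FPKM, with 3 of 5 lower and 1 higher (Lep, with 1 and 9 reads). Schwann cell and nerve markers summed to 104 and 79.2 FPKM, with 3 of 6 lower. Macrophage markers summed to 42.0 and 29.3 FPKM, with 2 of 7 lower, and pericyte markers to 299 and 273 FPKM, with 2 of 5 higher and 2 lower. Pancreas markers, which the artery should lack, were higher in 5 of 5 tested, with sums of 10.6 and 38.0 FPKM. Relative to the median of the smooth muscle markers, Avpr1a kept a log2(fold-change) of 1.01 and Adra1d of 0.68. The part of the other cell types in these values was not tested.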

How the data were processed

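RNA of each library came from mesenteric arteries of 2 mice and was sequenced commercially from poly(A)-selected libraries made with a kit that does not mark strand. The authors used TopHat2 to align reads to mm9. They deposited unscaled read counts for each gene, together with FPKM values, which were found to be those counts divided by 1 length per gene and by total counts. The submitters' processing notes name TopHat2 2.0.12, HTSeq 0.6.1 and edgeR 3.0.8. The annotation is not given in the sources used here, and 22972 of 55573 listed identifiers are not in GENCODE vM1, from which mm9 positions were taken.

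Genes were matched by identifier. TMM factors (1.07 and 0.930) came from edgeR 4.0.16 in R 4.3.3, and a count of 0 was entered as 0.5 reads. With 1 library per condition, the quasi-likelihood fit could not be run. Intervals used scipy 1.17.1, and the interval of a difference between 2 genes sums their counting variances. Intervals of differences and those with assumed variation are normal approximations and not exact. The scripts were tested on simulated data. Alternatives were 5 other scalings (median-of-ratios from DESeq2 1.42.0), other minimum reads, FPKM with pseudocounts, other thresholds and assumed variation between libraries. The receptors and lists were chosen with earlier results of these data known. All 10 receptors are named, and from each of the 6 lists the 3 members with most reads and those past 2-fold with at least 50 reads. Avp, Ren1, Mme, Dbh, Chrm3, Edn2, Th and the cell type markers are named outside this rule, after their values were seen. No gene was named for a pattern like that of a receptor, because 2 libraries give 1 ratio. Of 113 list symbols, a few were matched by RefSeq synonym. Plots used matplotlib 3.10.9 (Python 3.11.15).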

Additional observations from a re-analysis of the deposited data

How the results depend on the processing

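No paired analysis was possible because there was a single library for each condition, and no library could be left out. The count of receptors past 2-fold higher (1) became 0 with total counts, with Ppia and Hprt scaling and with FPKM at pseudocounts of 0.1 and 1, and 2 at a 1.5-fold threshold (Avpr1a and Adra1d). The count past 2-fold lower (2) became 4 with Ppia and Hprt scaling, 1 at a minimum of 1 CPM, and 0 at a minimum of 100 reads, with FPKM at a pseudocount of 1, and where the nearest end of the interval had to pass. The count higher beyond counting error (4) became 3 with upper-quartile scaling, 2 with total counts, Ppia and Hprt or smooth muscle scaling, and 2, 1 and 0 with an assumed coefficient of variation of 0.1, 0.2 and 0.4. The count lower (4) became 6 with total counts, 5 with smooth muscle scaling, 8 with Ppia and Hprt scaling, 3 at a minimum of 1 CPM, 2 at a minimum of 100 reads, and 1 and 0 at coefficients of 0.2 and 0.4. Among all genes, 22.1% were higher beyond counting error with upper-quartile scaling. The shares higher and lower were 13.6% and 38.4% with total counts and 17.5% and 30.4% with smooth muscle scaling. With Ppia and Hprt scaling they were 5.54% and 62.6%. Of all genes with at least 100 reads, 31.3% were higher and 22.8% lower beyond counting error. Past 2-fold, 3.06% of these were higher and 0.810% lower. For the remaining counts above, the share of all genes under the same setting was not counted, so these cannot be set against it. The median of the receptors (-0.04) became -0.53 with Ppia and Hprt scaling, which moved all values by -0.49. Total counts moved them by -0.21 and smooth muscle scaling by -0.13. Of the 10 receptors, 4 had a different rank by FPKM in the 2 libraries, and 2 with merged exon lengths of GENCODE vM1, an alternative chosen after the deposited lengths were seen. The sign of the log2(fold-change) turned in 2 of 5 scalings for Ednrb and P2rx1 and in 3 of 5 for P2ry6, all small values. It turned in 0 of 5 for the other receptors. All 5 scalings moved values down, so only values above 0 with TMM scaling could turn. Depth limits Agtr1a (39 reads in all) and Adra1b (13 reads), and no alternative replaces the missing replicates.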

Other observations

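The length behind the deposited FPKM is much shorter than the merged exons for some receptors. It was 745 bases for Agtr1a, against 2467 bases of merged exons in GENCODE vM1, and 3552 bases for Adra1a, against 8728 bases, while for Avpr1a the lengths were 2670 and 2671 bases. With the merged lengths, the level of Agtr1a would be 1.08 FPKM in 5 mM K+ in place of 3.59, and that of Adra1a 2.96 in place of 7.28. For P2rx1 the lengths were 1803 and 2625 bases. Its merged-length levels would be 396 FPKM in 5 mM K+ and 381 FPKM in 60 mM K+, in place of 576 and 554. For P2ry6 the lengths were 1084 and 1938 bases. It would rank 6 in both libraries, in place of 5 in 5 mM K+ and 4 in 60 mM K+.

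Tagln, one of the most abundant transcripts of smooth muscle, had 314 reads in 5 mM K+ and 387 in 60 mM K+, or 31.0 and 35.5 FPKM, beside 187183 and 199779 reads of Acta2. It shares 65 exon bases with Pcsk7 on the other strand. Among endothelial markers, Kdr, a receptor of vascular endothelial growth factor, was the 1 that was lower, at -1.10 (-1.52 to -0.70), from 168 reads in 5 mM K+ and 73 in 60 mM K+.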
